A study of Mus musculus with 15 samples.

Results

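The amino acid and integrated stress response genes are 47 genes of the 24451 in the deposited count table, taken by name as the known targets, effectors and amino acid arm of the transcription factor ATF4 and without a threshold on any value. All 47 passed the filter on low counts. They were followed in mouse ES-R1 embryonic stem cells, a line whose labelled source is the inner cell mass, grown at passages under 20 in serum-free medium that itself contained nonessential amino acids and L-glutamine. RNA was sequenced from 5 groups of 3 libraries: Vprbp siRNA with 25 ng/ml Activin A, Vprbp siRNA alone, control siRNA with 25 ng/ml Activin A, control siRNA with SB, and control siRNA alone. All groups were taken at day 4 of differentiation, so the groups called untreated here were also transfected and differentiating. Activin A is a ligand of the TGF-beta family that signals through SMAD2 and SMAD3, and SB is a small inhibitor of the receptors for Activin and Nodal. The labels name it SB431524 in the sample titles and SB431542 elsewhere, and give no dose. SB was given with control siRNA only, and no group carried another Vprbp siRNA or restored Vprbp. The labels do not say that the 3 libraries of a group came from separate cultures, so each p-value measures the spread between these libraries, which may be technical.

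In the integrated stress response, kinases such as GCN2 (Eif2ak4), which senses uncharged tRNA, and PERK (Eif2ak3), which senses misfolded protein in the endoplasmic reticulum, phosphorylate the translation factor eIF2. General translation then falls, while the mRNA of Atf4 is translated more, and ATF4 together with C/EBP partners switches on genes for amino acid synthesis, uptake and tRNA charging, for one-carbon metabolism, and for feedback. ATF4 is controlled in large part at translation, and neither eIF2 phosphorylation nor ATF4 protein was measured here, so the values below are mRNA levels only. Mouse embryonic stem cells are known for a strong dependence on threonine and on one-carbon metabolism.

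ATF4 binds C/EBP-ATF response elements, whose letters TGATGNAA were searched on both strands of RefSeq promoter windows (GRCm38.p6, 250 bases before to 50 after a listed transcript start). Of the 37 members with a window, 15 (40.5%) held a match, against 1219 of 27025 genes (4.51%). The form TGATGCAA, a special case of the same motif, was in 11 of the 37 members (29.7%) and in 1.03% of all genes, whereas the cAMP response element TGACGTCA was in 1 member, Ppp1r15a (2.70%), and in 2.03% of all genes. A match is a run of letters and not evidence of binding. Members with a window but no match include Atf4, Atf5, Ddit3, Cebpb, Sesn2, Bcat1 and Slc38a2, to which the comparisons also return. Stretches of 60 bases are shown for 7 members that do hold a match, to let the element be read in its context. Each is written 5′ to 3′ on the gene's own strand, with the match in capitals (TTGCATCA is TGATGCAA read on the other strand). The stretch for Atf3, a stress-induced transcription factor, is chr1:191183410-191183469 (minus strand), that for Chac1, which degrades glutathione, chr2:119351023-119351082 (plus strand), and that for Asns, which makes asparagine, chr6:7693210-7693269 (minus strand). The stretch for Nupr1, a small stress-induced nuclear protein, is chr7:126625547-126625606 (minus strand), and that for Aars, which charges alanine tRNA, chr8:111033704-111033763 (plus strand). The stretch for Pycr1, which makes proline, is chr11:120643818-120643877 (minus strand), and that for Vldlr, the very low density lipoprotein receptor, chr19:27216794-27216853 (plus strand). These are promoter positions, and positions given for genes further on span the whole gene. The stretches for Aars and Vldlr lie inside the listed spans of these genes (chr8:111027778-111055569 and chr19:27216480-27254231). They precede a listed transcript start that is not the outermost.
Atf3: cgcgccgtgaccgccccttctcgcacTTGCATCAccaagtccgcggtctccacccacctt
Chac1: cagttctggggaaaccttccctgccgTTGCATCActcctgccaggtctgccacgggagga
Asns: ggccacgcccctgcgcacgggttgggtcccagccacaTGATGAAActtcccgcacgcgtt
Nupr1: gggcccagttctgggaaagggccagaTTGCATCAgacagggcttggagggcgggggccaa
Aars: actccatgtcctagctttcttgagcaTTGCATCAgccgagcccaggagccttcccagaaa
Pycr1: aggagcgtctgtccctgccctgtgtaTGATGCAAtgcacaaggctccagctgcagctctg
Vldlr: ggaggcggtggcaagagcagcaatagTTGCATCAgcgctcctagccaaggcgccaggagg

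The libraries held 11146200 to 15527200 counts in genes, so 3 counts, the limit that a count of 0 allows, correspond to 0.193 to 0.269 CPM (counts scaled to a common library size). Vprbp, the targeted gene and a substrate receptor of a cullin ubiquitin ligase, had 149, 131 and 135 CPM with Vprbp siRNA and Activin and 121, 132 and 114 CPM with Vprbp siRNA alone, against 178, 175 and 184 CPM with control siRNA and Activin and 173, 167 and 173 CPM with control siRNA alone. It was 28.6% lower with Vprbp siRNA without addition (log2 fold change -0.49 ± 0.06 SE, adjusted p = 0.0020) and 22.8% lower with Activin (-0.37 ± 0.06, adjusted p = 0.037; edgeR quasi-likelihood test with Benjamini-Hochberg adjustment, as for every adjusted p below), so the knockdown left most of the transcript. With control siRNA and SB, Vprbp had 144, 151 and 157 CPM, 11.7% lower than with control siRNA alone (-0.18 ± 0.06, adjusted p = 0.049). Under control siRNA it was 1.19-fold higher with Activin than with SB (0.25 ± 0.06, adjusted p = 0.0047). Lefty2, a target of Activin and Nodal signalling, had 199, 179.7 and 214 CPM with control siRNA and Activin, 1.31, 0.723 and 1.07 CPM with SB, and 56.3, 55.3 and 16.5 CPM with control siRNA alone. Pluripotency markers, 10 of 10 with counts in every group, summed to 4562 to 4957 CPM with Activin, 2911 to 3233 CPM with SB and 3972 to 4584 CPM with control siRNA alone. Trophoblast markers summed to 1410 to 1678 CPM with SB and 536 to 656 CPM with control siRNA alone, and fibroblast (feeder) markers to 32.3 to 65.4 CPM over all groups. Among all markers checked, Afp, Elf5 and Lum were at 0 in some groups. In bulk RNA, fewer cells of a type and less RNA per cell cannot be told apart.

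Replicate 3 of both untreated groups stood apart in these genes, and most results below that rest on it are given with and without it. These 2 libraries were picked after their values in these genes were seen. Smaller standard errors of the members without them therefore follow in part from the choice. In control siRNA alone, replicate 3 was the highest of its group in 45 of 47 members (95.7%, against 39.4% of all genes tested), and in Vprbp siRNA alone replicate 3 was the highest in 43 (91.5%, against 36.3%). Ddit3, which encodes the pro-apoptotic factor CHOP, had 9.62, 9.39 and 33.2 CPM in the Vprbp siRNA libraries and 11.7, 13.7 and 71.4 CPM in the control siRNA libraries. Trib3, a pseudokinase that restrains ATF4, had 21.4, 15.8 and 50.7 CPM with Vprbp siRNA and 26.4, 28.9 and 89.7 CPM with control siRNA, and Nupr1 had 8.70, 6.23 and 26.4 CPM with Vprbp siRNA and 11.7, 12.2 and 52.0 CPM with control siRNA. In each of these genes replicate 3 was the highest of its group, and the other 2 libraries lay nearer to each other than to it. Vprbp siRNA replicate 2 was the lowest of its group in 41 members (87.2%, against 32.4% of all genes tested). Control siRNA replicate 2 was the lowest in 27 (57.4%, against 27.3%). Over all members the median deviations from the group mean (log2) were -0.05, -0.26 and 0.34 in Vprbp siRNA replicates 1, 2 and 3. In control siRNA replicates 1, 2 and 3 they were -0.17, -0.23 and 0.42. The members varied together: over the 15 libraries, deviations from the group mean correlated at up to r = 0.99 (Psat1 and Nars). The lowest r was -0.90, between Cebpb and Slc38a2. The 47 genes are therefore not separate observations in the counts of members below.

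**Figure D1:**
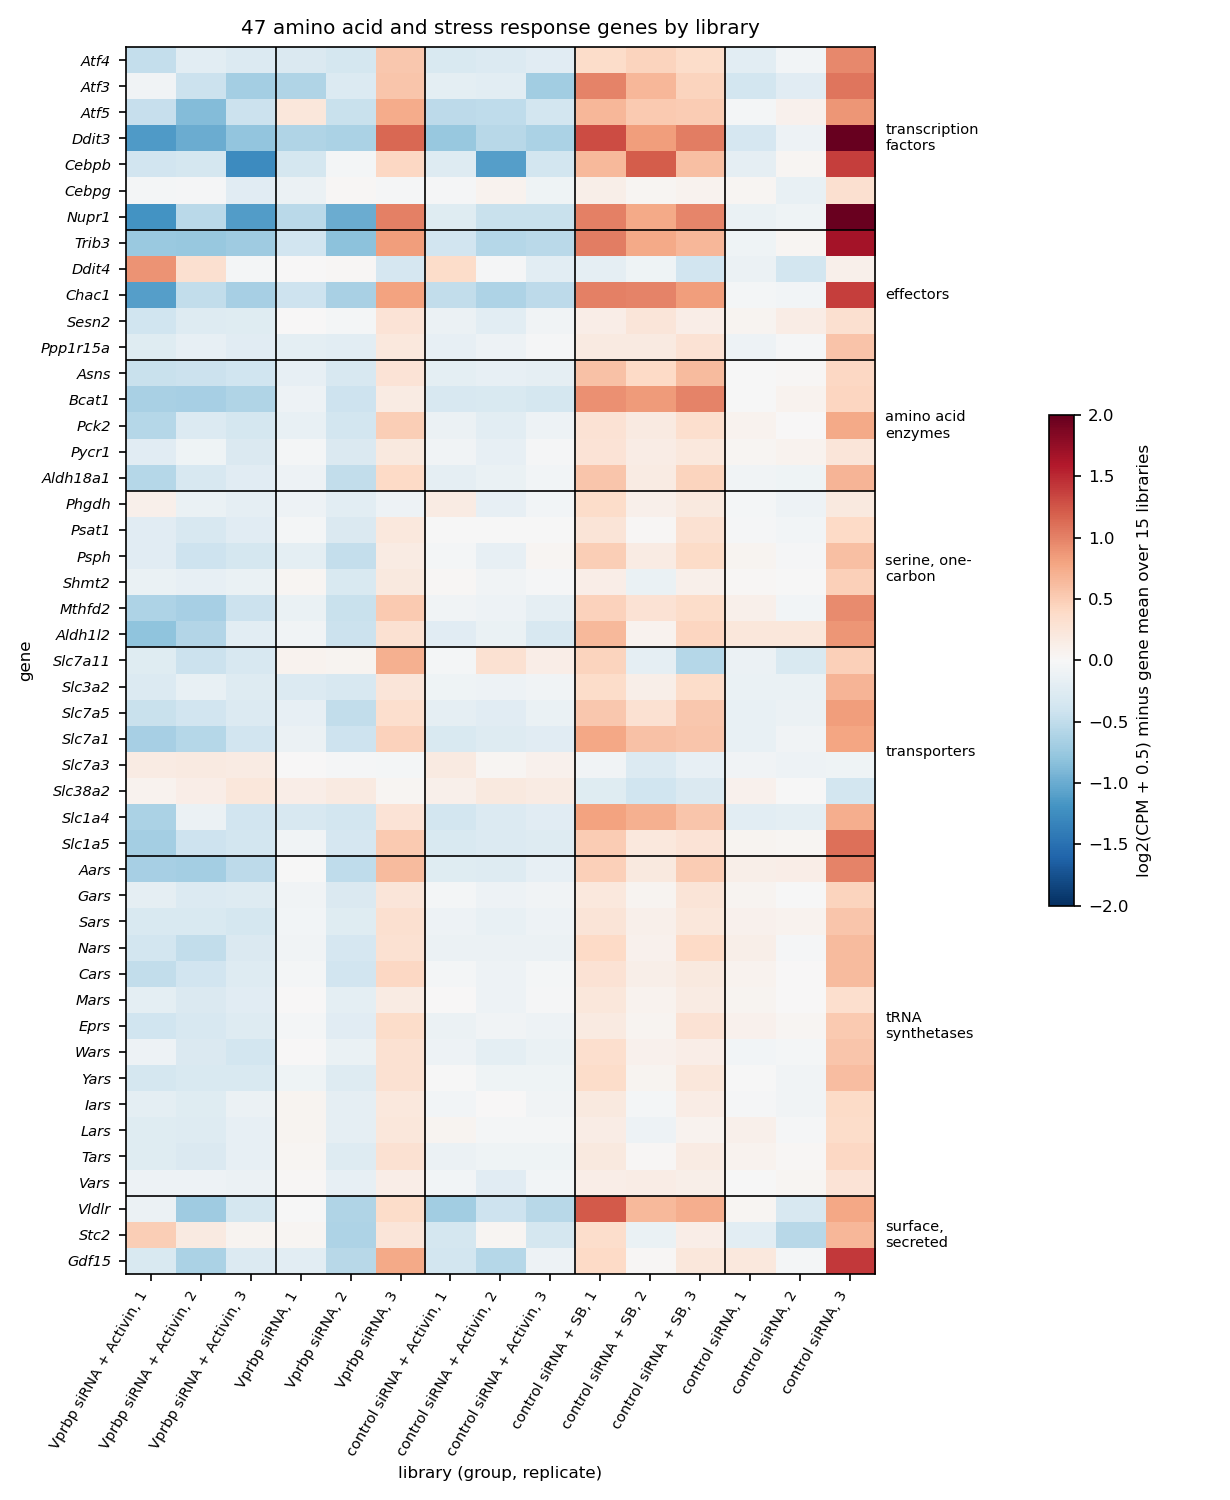
Level of each of the 47 genes (down the page, by role) in each of the 15 libraries (across), as log2(CPM + 0.5) minus the gene's mean over the libraries; the colour scale ends at -2 and 2. Replicate 3 of both untreated groups and the 3 SB libraries stand out as higher in most genes, and the Activin libraries as lower.

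The same 2 libraries differed in other ways. Lefty2 was lowest in replicate 3 of each untreated group, at 35.2 CPM against 74.6 and 86.3 CPM with Vprbp siRNA, and at 16.5 CPM against 56.3 and 55.3 CPM with control siRNA. Smad7, a feedback inhibitor of the pathway, was also lowest there, at 45.9 CPM against 64.9 and 48.6 CPM with Vprbp siRNA, and at 37.4 CPM against 61.2 and 46.6 CPM with control siRNA. The median deviation of primed epiblast markers was -0.36 (log2) in Vprbp siRNA replicate 3 and -0.74 in control siRNA replicate 3. The ATF6 and XBP1 chaperones of the endoplasmic reticulum deviated by 0.11 and 0.13 in these libraries, the eIF2 kinases, eIF2 and eIF2B by 0.058 and 0.057, and the cytosolic tRNA synthetases outside the 47 genes by 0.010 and 0.046. The part of these differences in the results was not tested. Within groups the members had a median SD of 0.246 on the log2 scale, against 0.143 over all genes tested, and Ddit3, at 0.79, lay at the 99.9th percentile of all genes.

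Activin against SB set cells given the ligand beside cells in which its receptors were inhibited, both under control siRNA. Most of the 47 genes were lower with Activin than with SB: the 3 Activin libraries all lay below the 3 SB libraries in 37 members (27.6% of all genes tested did so) and all above in 2 (27.2% of all genes). The median log2 fold change of the members was -0.38, against -0.002 over all genes tested, and 43 of 47 were negative. By the test, 13 members fell and 2 rose, or 31.9%, where 38.0% of all genes tested were called in either direction and 19.0% in each direction, so the number of calls alone did not set these genes apart. Cell type markers moved with this difference: primed epiblast markers summed to 865 to 905 CPM with Activin and 352 to 418 CPM with SB (5 of 5 rose, median 2.23). Neuroectoderm markers summed to 143 to 148 CPM with Activin and 180.5 to 205 CPM with SB (1 of 7 tested rose and 5 fell, median -1.76). Trophoblast markers summed to 492.6 to 493.6 CPM with Activin and 1410 to 1678 CPM with SB (5 of 7 tested fell, median -1.79). Of the 10 pluripotency markers 7 rose and 2 fell (median 0.63). The part of these markers in the members' difference was not tested. Among the libraries of this pair, SB replicate 1 was the highest of its group in 34 members (72.3%, against 34.0% of all genes tested). SB replicate 2 was the lowest in 35 (74.5%, against 31.8%).

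Among the 7 stress transcription factors 3 fell, and 6 had Activin libraries all below SB libraries. Atf5, an ATF4-related factor, had 40.8, 41.3 and 45.3 CPM with Activin and 93.3, 84.3 and 84.0 CPM with SB. It was 2.05-fold lower with Activin (-1.04 ± 0.30, adjusted p = 0.019). Cebpb, a C/EBP partner of ATF4, had 4.97, 2.53 and 4.56 CPM with Activin and 9.73, 14.6 and 9.37 CPM with SB, a log2 fold change of -1.46 ± 0.45 (adjusted p = 0.022). Atf3, at 5.43, 5.33 and 3.70 CPM with Activin and 13.0, 10.3 and 8.73 CPM with SB, also fell (-1.16 ± 0.41, adjusted p = 0.043). All 3 genes showed separate groups, but Atf3 lost its call when any library of the pair except SB replicate 3 was left out (adjusted p 0.075 to 0.14), Cebpb when Activin replicate 2 or 3 or SB replicate 2 was (0.050 to 0.075), and Atf5 when Activin replicate 1 or 2 or SB replicate 1 was.

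Atf4 itself and Ddit3 were separated between the groups without passing the test. Atf4 (chr15:80255184-80257545) had 184, 189 and 194 CPM with Activin and 295, 310.1 and 294 CPM with SB, a log2 fold change of -0.67 ± 0.31 (adjusted p = 0.11). Ddit3 (chr10:127290793-127296291) had 8.56, 9.93 and 9.38 CPM with Activin and 37.1, 26.7 and 30.6 CPM with SB, a log2 fold change of -1.76 ± 0.73 (adjusted p = 0.082). The 2 groups did not overlap in either gene and each was narrow, with SDs of 5.21 CPM for Atf4 with Activin and 9.00 CPM with SB. The spread in the test, however, is estimated over all 15 libraries, including the untreated replicate 3 libraries described above. Without those 2 libraries, which belong to neither group, the fold changes were the same and the standard errors smaller: -0.67 ± 0.06 for Atf4 (adjusted p = 2.3e-08) and -1.76 ± 0.13 for Ddit3 (adjusted p = 4.9e-10). The end of Ddit3 overlaps that of Mars (chr10:127296221-127311786), and with the strand setting of the counting not given, reads in the overlap cannot be told apart.

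**Figure D2:**
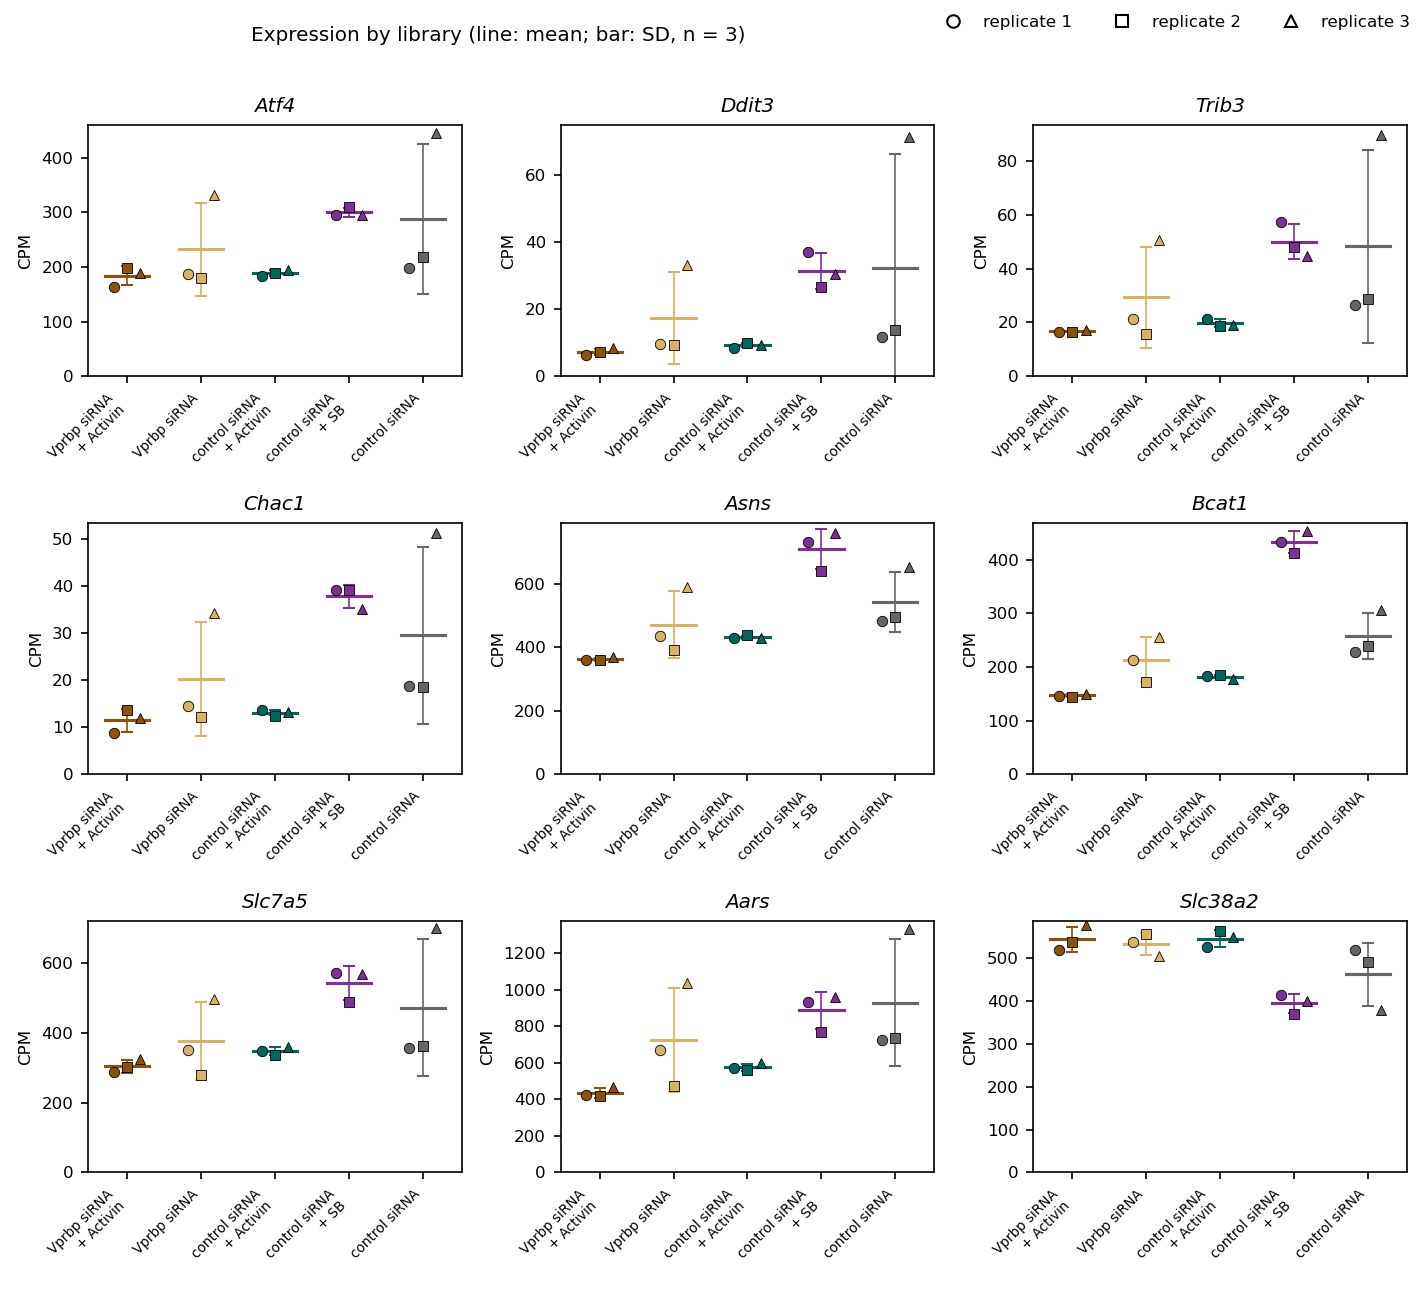
CPM of 9 of the genes in every library, by group; points are libraries, lines are group means and bars are 1 SD (n = 3 each), the bar for Ddit3 with control siRNA alone being stopped at 0. SB libraries lie above Activin libraries in all panels but Slc38a2, and replicate 3 of each untreated group lies apart in Ddit3 and Trib3.

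The same alternative, chosen after seeing the data, moved the count for the whole set: without replicate 3 of both untreated groups, 38 members fell and 2 rose, where 21.3% of all genes tested fell and 21.0% rose. With only the 6 libraries compared in the fit, 40 fell and 2 rose of the 46 tested, where 24.5% of all genes fell and 24.3% rose. In both fits the fold changes rest on the same 6 libraries. The estimated spread and the genes tested differed, with 14770 genes tested without the replicate 3 libraries and 14054 with only the 6, against 14600 in the fit of all libraries.

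Of the 5 effectors and feedback genes 2 fell. Sesn2, a leucine sensor that restrains mTORC1, had 113, 106 and 117 CPM with Activin and 134, 145 and 134 CPM with SB, a modest but narrow difference (-0.30 ± 0.08, adjusted p = 0.0072). Chac1 had 13.6, 12.5 and 13.2 CPM with Activin and 39.2, 39.1 and 35.0 CPM with SB, and was 2.88-fold lower (-1.53 ± 0.46, adjusted p = 0.023). The Chac1 groups lay far apart, yet its adjusted p became 0.054 to 0.065 when any library of the pair other than SB replicate 3 was left out. Trib3 had 21.4, 18.8 and 19.2 CPM with Activin and 57.4, 48.0 and 44.7 CPM with SB, with no overlap (-1.34 ± 0.52, adjusted p = 0.064; -1.34 ± 0.11 and adjusted p = 2.0e-09 without the 2 untreated replicate 3 libraries). Ddit4, an inhibitor of mTORC1, was the only gene of these 5 whose groups overlapped, at 114, 87.0 and 75.8 CPM with Activin and 78.0, 82.7 and 67.4 CPM with SB.

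Of the 5 enzymes of asparagine, proline, branched-chain amino acid and phosphoenolpyruvate metabolism 3 fell. Bcat1 (chr6:144993835-145076157), the cytosolic enzyme that transaminates branched-chain amino acids, had 184, 185 and 178 CPM with Activin and 433, 412 and 454 CPM with SB, and was 2.38-fold lower with Activin (-1.25 ± 0.12, adjusted p = 1.4e-06). Asns (chr6:7675165-7693209) had 427, 437 and 429 CPM with Activin and 729, 639 and 758 CPM with SB, and was 1.64-fold lower (-0.72 ± 0.14, adjusted p = 0.00095). Pycr1 fell less, at 39.0, 36.4 and 40.2 CPM with Activin and 49.7, 45.6 and 47.7 CPM with SB (-0.30 ± 0.10, adjusted p = 0.021). Activin libraries lay below SB libraries in all 5 enzymes, and the calls of Bcat1 and Asns held with each library of the pair left out in turn. In the serine and one-carbon group 1 of 6 fell: Aldh1l2, the mitochondrial enzyme that releases folate-bound formyl groups, had 15.5, 16.6 and 14.4 CPM with Activin and 28.8, 19.0 and 24.6 CPM with SB (-0.64 ± 0.23, adjusted p = 0.039), and its call was lost without any of the 3 Activin libraries, SB replicate 1 or SB replicate 3. Phgdh, which commits glycolytic carbon to serine, overlapped, at 65.4, 52.0 and 56.2 CPM with Activin and 75.3, 62.8 and 67.1 CPM with SB (-0.24 ± 0.10, adjusted p = 0.061). Psph, which makes serine in the last step of that route, did not overlap, at 49.1, 45.2 and 52.1 CPM with Activin and 71.3, 56.8 and 65.8 CPM with SB (-0.40 ± 0.17, adjusted p = 0.079).

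The 8 amino acid transporters divided in direction. Slc38a2 (chr15:96687392-96699728), the sodium-coupled carrier of small neutral amino acids, had 526, 564 and 549 CPM with Activin and 414, 371 and 400.5 CPM with SB, and rose 1.38-fold (0.47 ± 0.09, adjusted p = 0.00027). Slc7a3, a carrier of cationic amino acids, had 111, 101 and 104 CPM with Activin and 93.6, 81.6 and 87.4 CPM with SB, and rose 1.21-fold (0.27 ± 0.06, adjusted p = 0.0016). These 2 genes were the only members higher with Activin in all libraries. Slc1a4, a neutral amino acid and serine carrier, fell by contrast, at 57.9, 62.1 and 64.2 CPM with Activin and 131, 123 and 111 CPM with SB (-0.99 ± 0.26, adjusted p = 0.012), as did Slc7a1, another cationic carrier (-0.90 ± 0.26, adjusted p = 0.019). Slc7a11, the cystine carrier, ranged from 0.215 to 1.24 CPM over the 15 libraries, or 3 to 19 counts, and its log2 fold change had a wide error (0.32 ± 0.53, adjusted p = 0.67).

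Of the 13 tRNA synthetases, which charge tRNAs with their amino acids, 1 fell and 11 had Activin libraries all below SB libraries, by small amounts (median log2 fold change -0.27). Vars, the valine enzyme, had 557, 499 and 558 CPM with Activin and 639.7, 642 and 629 CPM with SB (-0.24 ± 0.08, adjusted p = 0.016). Mars, the methionine enzyme, had 217, 202 and 212 CPM with Activin and 254, 226 and 243 CPM with SB (-0.20 ± 0.09, adjusted p = 0.075), and Sars, the serine enzyme, 404, 389 and 406 CPM with Activin and 519.5, 466 and 508 CPM with SB (-0.32 ± 0.14, adjusted p = 0.082). Without the untreated replicate 3 libraries 11 of the 13 fell, Iars and Lars being the exceptions. Among the 3 surface and secreted proteins Vldlr fell, at 6.65, 8.21 and 7.33 CPM with Activin and 26.4, 17.7 and 18.5 CPM with SB (-1.50 ± 0.30, adjusted p = 0.0015). Gdf15, a stress hormone of the TGF-beta family, had 7.80, 6.68 and 9.52 CPM with Activin and 13.6, 10.4 and 12.1 CPM with SB and did not pass (-0.58 ± 0.43, adjusted p = 0.32). The calls of Bcat1, Asns, Slc1a4, Slc38a2, Slc7a3, Sesn2 and Vldlr held with each of the 6 libraries left out in turn, while those of Slc7a1 (without Activin replicate 1 or 2 or SB replicate 1), Pycr1 (without Activin replicate 2 or SB replicate 1) and Vars (without Activin replicate 2) did not.

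**Figure D3:**
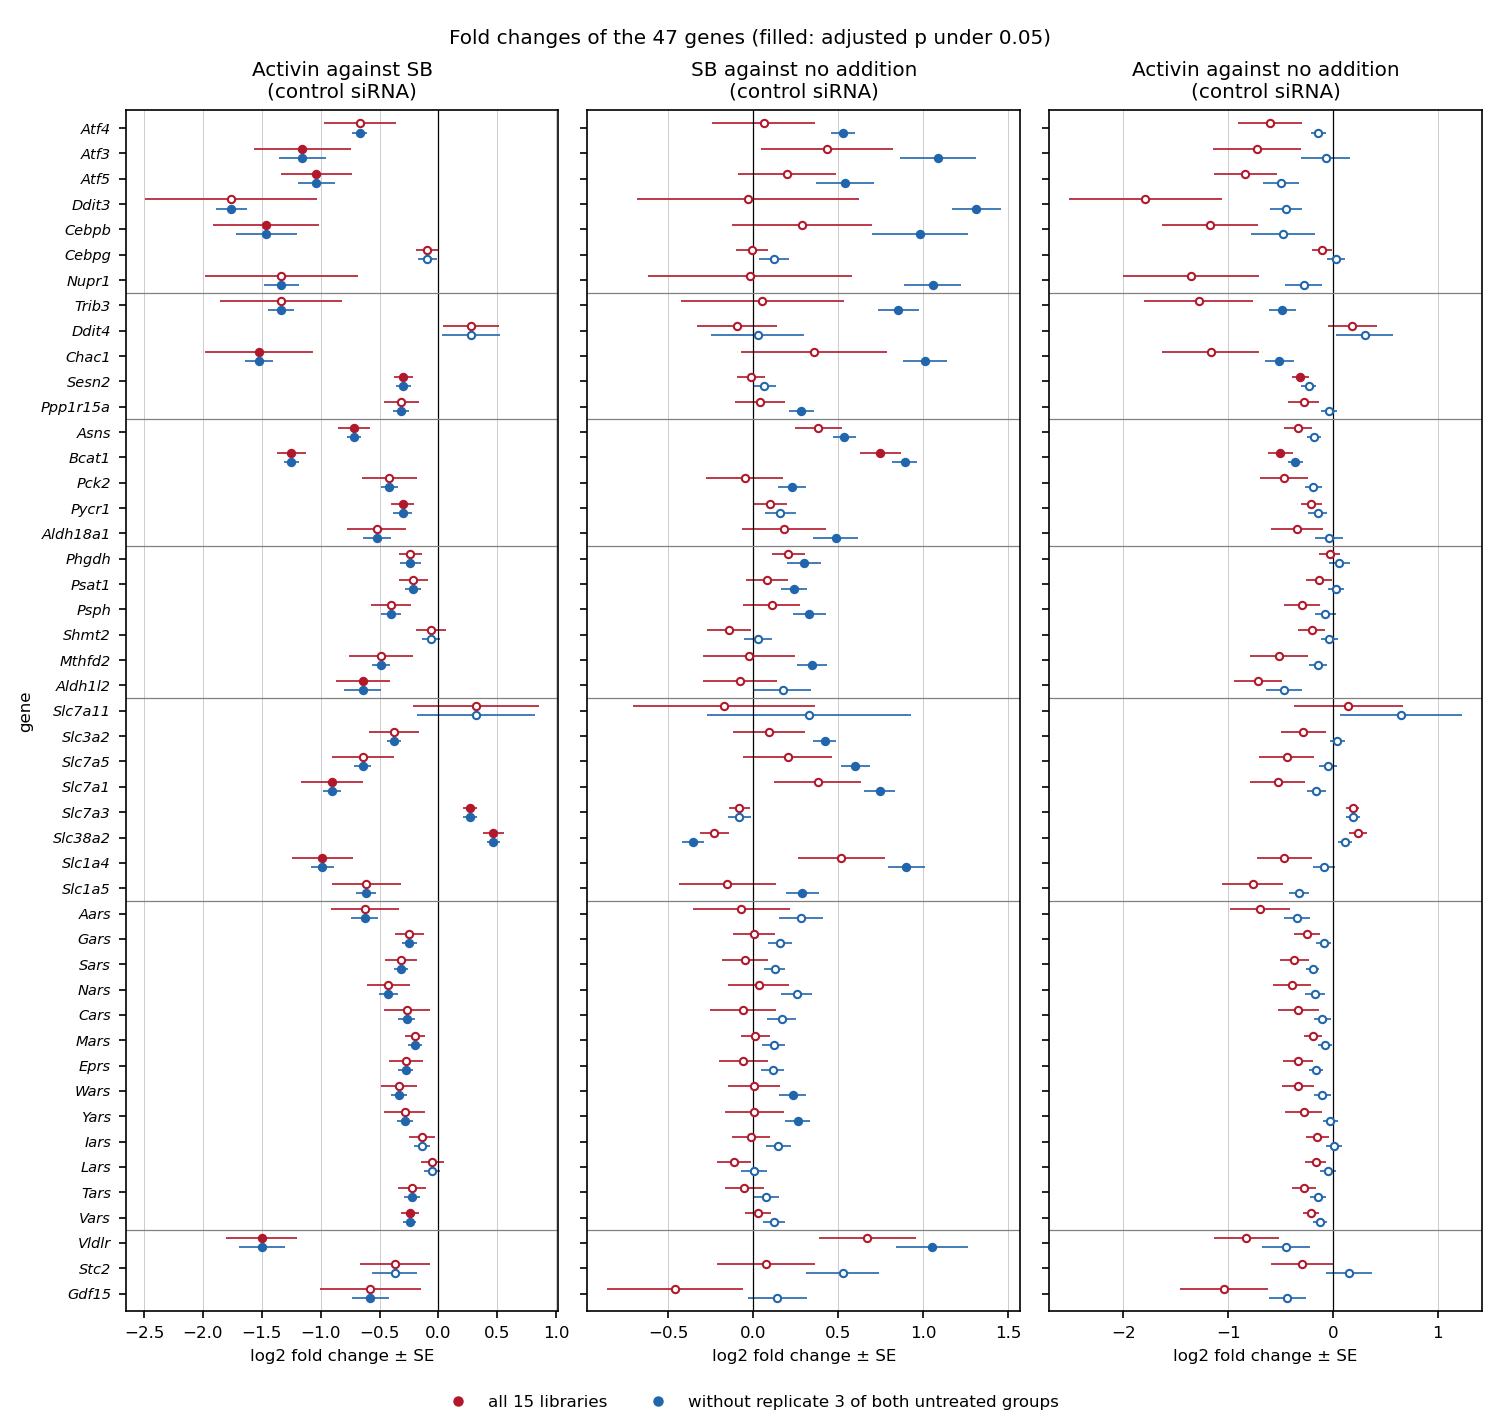
Log2 fold changes of the 47 genes with Activin against SB, SB against control siRNA alone, and Activin against control siRNA alone, in the fit of all 15 libraries (red) and without replicate 3 of both untreated groups (blue); filled symbols have an adjusted p under 0.05. The Activin against SB values coincide in both fits, while in most genes those against control siRNA alone lie further right without the replicate 3 libraries.

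SB against control siRNA alone asked what blocking the receptors did to cells given no Activin. Only Bcat1 changed among the 47 genes (2.13%, where 22.6% of all genes tested were called in either direction). It had 433, 412 and 454 CPM with SB and 227, 239.6 and 307 CPM with control siRNA alone, and rose 1.68-fold (0.75 ± 0.12, adjusted p = 0.00036). This call held with each of the 6 libraries left out in turn. Asns had 729, 639 and 758 CPM with SB and 483, 494 and 652 CPM with control siRNA alone (0.38 ± 0.14, adjusted p = 0.058), the groups overlapping through control siRNA replicate 3. Ddit3 averaged 31.4 ± 5.28 CPM with SB and 32.3 ± 33.9 CPM with control siRNA alone (SD, n = 3 each), a log2 fold change of -0.03 ± 0.65. Atf4 averaged 299.7 ± 9.00 CPM with SB and 287 ± 137 CPM with control siRNA alone. In both genes the control siRNA SD came from replicate 3, at 445 CPM for Atf4 beside 198 and 219 CPM in the other 2 libraries. The median over the members was 0.01, beside -0.005 over all genes.

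This comparison depended on replicate 3 of both untreated groups. Without control siRNA replicate 3 alone 11 members rose and 1 fell, where 23.1% of all genes were called, and the median was 0.28. In that fit Asns was called (0.54 ± 0.13, adjusted p = 0.0080). Ddit3 (1.31 ± 0.48, adjusted p = 0.084), Chac1 (1.01 ± 0.36, 0.073), Trib3 (0.85 ± 0.38, 0.15) and Atf4 (0.53 ± 0.23, 0.13) were not. Vprbp siRNA replicate 3 is in neither group, and leaving it out as well left these fold changes the same with smaller standard errors. Without replicate 3 of both untreated groups 25 members rose, where 12.8% of all genes did, and 1 fell, where 12.3% of all genes did. Ddit3 then differed by 1.31 ± 0.14 on the log2 scale (adjusted p = 5.1e-07), Chac1 by 1.01 ± 0.13 (adjusted p = 4.2e-06), Trib3 by 0.85 ± 0.12 (adjusted p = 1.2e-05), Asns by 0.54 ± 0.07 (adjusted p = 3.4e-06) and Atf4 by 0.53 ± 0.07 (adjusted p = 9.1e-06), all higher with SB. In that fit 6 of 7 transcription factors, 3 of 5 effectors, 4 of 5 enzymes, 4 of 6 serine and one-carbon genes and 5 of 8 transporters rose, but only 2 of 13 tRNA synthetases, Wars and Yars. Slc38a2 was the member that fell, by 0.35 ± 0.06 (adjusted p = 0.00023), with 414, 371 and 400.5 CPM with SB beside 519 and 491 CPM in control siRNA replicates 1 and 2 and 379 CPM in the left-out replicate 3. The untreated group then holds 2 libraries, and these values come from an alternative chosen after seeing the data. The left-out control siRNA replicate 3 was the highest of its group in 45 of 47 members. Leaving it out thus moves most members toward higher with SB, and lowers their spread, by the choice itself. The counts and adjusted p-values of these fits, and the shares of all genes beside them, are description only.

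Activin against no addition gave few calls among the members under both siRNAs, while their log2 fold changes ran from -1.79 to 0.24 under control siRNA and from -1.27 to 0.54 under Vprbp siRNA. Under control siRNA 2 members fell and none rose (4.26%, where 4.82% of all genes tested were called and 1.87% fell). Bcat1 had 184, 185 and 178 CPM with Activin and 227, 239.6 and 307 CPM without (-0.50 ± 0.12, adjusted p = 0.031). Sesn2 had 113, 106 and 117 CPM with Activin and 128, 136 and 153 CPM without (-0.31 ± 0.08, adjusted p = 0.035). Both genes had separate groups. The Activin libraries lay all below the untreated ones in 29 members (13.6% of all genes tested) and all above in 2 (14.0%), Slc38a2 and Slc7a3, neither of which passed the test (adjusted p = 0.12 and 0.084). The median was -0.33 over the members and -0.005 over all genes. Without replicate 3 of both untreated groups the median was -0.12 and 3 members fell, where 3.02% of all genes were called: Bcat1 (-0.36 ± 0.07, adjusted p = 0.0056), Trib3 (-0.48 ± 0.12, adjusted p = 0.033) and Chac1 (-0.51 ± 0.14, adjusted p = 0.042). Ddit3 moved most between the fits, at -1.79 ± 0.73 with all libraries and -0.45 ± 0.15 without the replicate 3 libraries, and passed in neither (adjusted p = 0.20 and 0.14). In the fit of all libraries the call of Bcat1 was lost without any of the 3 Activin libraries or without control siRNA replicate 3 (adjusted p 0.090 to 0.11), and that of Sesn2 without any Activin library or control siRNA replicate 2 or 3 (0.060 to 0.17).

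Under Vprbp siRNA the same 2 genes fell with Activin (4.26%, where 6.12% of all genes tested were called and 2.47% fell). Bcat1 had 146, 144 and 151 CPM with Vprbp siRNA and Activin and 214, 172 and 257 CPM with Vprbp siRNA alone (-0.54 ± 0.12, adjusted p = 0.016). Sesn2 had 93.1, 102 and 103 CPM with Vprbp siRNA and Activin and 123, 118 and 147 CPM with Vprbp siRNA alone (-0.38 ± 0.08, adjusted p = 0.0079). Neither gene overlapped between the groups, and without replicate 3 of both untreated groups both were still called, where 3.76% of all genes were (-0.39 ± 0.07, adjusted p = 0.0026 for Bcat1, and -0.28 ± 0.07, adjusted p = 0.022 for Sesn2). Leaving out Vprbp siRNA replicate 3 alone ended both calls, and that of Bcat1 also ended without Vprbp siRNA replicate 1 or without replicate 1 or 2 of Vprbp siRNA and Activin (adjusted p 0.056 to 0.069). The responses to Activin under Vprbp siRNA and under control siRNA were compared by the interaction: 0 of 47 members and 0 genes in all passed the edgeR test, with 0 members and 517 of all genes (3.54%) at an unadjusted p under 0.05. For Asns the difference of the responses was -0.05 ± 0.19, for Atf4 0.26 ± 0.43 and for Ddit3 0.52 ± 1.06 (log2). In each of these genes the standard error exceeded the difference itself in that fit. Without control siRNA replicate 3 the differences were -0.19 ± 0.17 for Asns, -0.20 ± 0.30 for Atf4 and -0.81 ± 0.70 for Ddit3. No member was called in that fit or without replicate 3 of both untreated groups.

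Vprbp siRNA against control siRNA, the knockdown comparison of the study, changed no member by the test in either condition. Without addition 0 of 47 were called with edgeR and 0 with DESeq2, with 4 at an unadjusted p under 0.05 with edgeR (0.0411% of all genes tested were called and 8.16% had an unadjusted p under 0.05). Bcat1 had 214, 172 and 257 CPM with Vprbp siRNA and 227, 239.6 and 307 CPM with control siRNA, and Asns had 434, 390.2 and 589 CPM with Vprbp siRNA and 483, 494 and 652 CPM with control siRNA. Both overlapped, and over the members only Slc7a3, all above with Vprbp siRNA, did not (6.64% of all genes tested were so). The members' median was -0.23 (0.001 over all genes), but it was 0.04 without control siRNA replicate 3 and -0.42 without Vprbp siRNA replicate 3, and without both it was -0.16. Libraries with the same replicate number deviated together in this comparison, most clearly replicate 3. Within these 3 pairs, counted after seeing the data, 35 members were lower with Vprbp siRNA in every pair (17.8% of all genes tested were), Bcat1, Asns, Atf4, Ddit3, Trib3 and Nupr1 among them. Another 3 were higher in every pair, for which the share of all genes was not counted. The labels state no pairing, and unlike-numbered libraries were not compared, so these counts do not show an effect of the siRNA. With the replicate number as a block 0 members were called by edgeR. Bcat1 was at -0.27 ± 0.09 (adjusted p = 0.38) and Asns at -0.21 ± 0.10 (adjusted p = 0.52).

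With Activin in both groups no replicate 3 library stood apart in these genes, but replicate 1 of Vprbp siRNA and Activin did in other genes and in the member Ddit4. Its primitive streak and mesendoderm markers summed to 173 CPM, against 46.3 and 41.8 CPM in replicates 2 and 3, and Ddit4 had 164 CPM there, against 110.2 and 85.7 CPM. The 3 Vprbp siRNA libraries lay all below the 3 control siRNA libraries in 28 of 47 members (9.03% of all genes tested) and all above in 1, Stc2 (8.38%), with a median log2 fold change of -0.19 beside 0.002 over all genes. Members that vary together are not separate observations in such a count. Beside this, primed epiblast markers summed to 1120 to 1382 CPM with Vprbp siRNA and 865 to 905 CPM with control siRNA, with 5 of 5 markers all above, and all 6 primitive streak and mesendoderm markers tested were positive (median 1.53). In both lists 0 markers were called, and their part in the result was not tested. None passed with edgeR or DESeq2, and 3 had an unadjusted p under 0.05 with edgeR (Bcat1, Mars and Lars), where 0.0411% of all genes were called and 10.5% had an unadjusted p under 0.05. Bcat1 had 146, 144 and 151 CPM with Vprbp siRNA and 184, 185 and 178 CPM with control siRNA (-0.31 ± 0.12, adjusted p = 0.39). Asns had 359, 360.0 and 368 CPM with Vprbp siRNA and 427, 437 and 429 CPM with control siRNA, a difference of the means of 362 ± 4.92 CPM and 431 ± 5.42 CPM (SD, n = 3 each). In both genes the groups were well separated relative to their own SDs. Without replicate 3 of both untreated groups, which are in neither group, 3 members fell, where 0.840% of all genes were called: Mthfd2, a mitochondrial folate enzyme (-0.46 ± 0.08, adjusted p = 0.0084), Bcat1 (-0.31 ± 0.07, adjusted p = 0.029) and Asns (-0.25 ± 0.06, adjusted p = 0.049). When replicate 1 of Vprbp siRNA and Activin was left out as well, Mthfd2 and Bcat1 were called and Asns was not (-0.24 ± 0.07, adjusted p = 0.064), where 1.39% of all genes were called. Fitted on these 6 libraries alone, 3 members were called, namely Aars, Bcat1 and Mthfd2, where 0.486% of all genes were. Aars and Mthfd2 are named after their values were seen. The comparisons of SB, Activin and Vprbp siRNA with control siRNA share the control libraries, so they are not independent of each other.

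The lists of related genes had medians nearer 0 than the 47 genes with Activin against SB, and are given by their counts. In the list of eIF2 kinases, eIF2 and eIF2B 1 of 15 rose and 6 fell (median -0.07), with Eif2s1, the subunit that the kinases phosphorylate, rising (0.29 ± 0.06, adjusted p = 0.00061) and Eif2b4 falling (-0.30 ± 0.08, adjusted p = 0.0052). The kinase genes Eif2ak4 and Eif2ak3 were not called, at -0.07 and 0.15. Of 18 endoplasmic reticulum chaperone and ATF6 or XBP1 target genes 2 rose and 4 fell (median -0.11), Xbp1 rising by 0.44 (adjusted p = 5.0e-05), while Hspa5, the main chaperone of that compartment, was at 0.03. Of 7 cytosolic tRNA synthetases outside the 47 genes 3 rose and 0 fell (median -0.009), Kars by 0.32 ± 0.06 (adjusted p = 0.00014) and Dars by 0.35 ± 0.07 (adjusted p = 0.00027). Mitochondrial tRNA synthetases rose in 4 and fell in 2 of 17 (median 0.12), and other folate genes rose in 6 and fell in 2 of 13 (median 0.18). Over all genes tested the median was -0.002, and 19.0% rose and 19.0% fell.

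**Figure D4:**
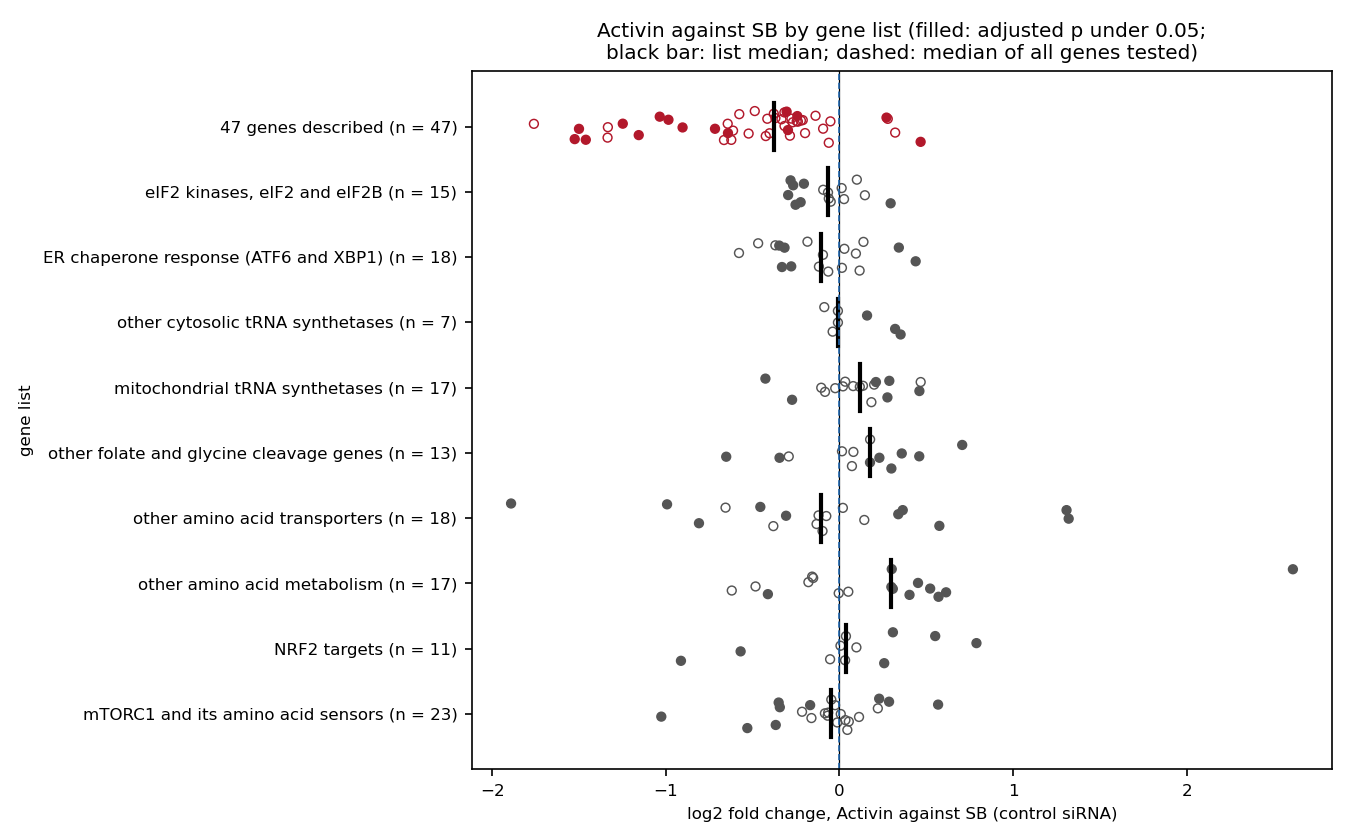
Log2 fold changes with Activin against SB, control siRNA, of each gene of the 47 and of 9 related pathway lists; each point is a gene, each black bar the list's median, and the dashed line the median of all genes tested. The 47 genes have a median of -0.38, and the medians of the other lists lie between -0.11 and 0.30.

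Amino acid genes outside the 47 moved in both directions. Of 18 other transporters 5 rose and 5 fell with Activin against SB. Slc7a7, a light chain of the cationic and neutral amino acid exchanger, averaged 189 ± 10.8 CPM with Activin and 76.5 ± 1.72 CPM with SB (SD, n = 3 each) and rose 2.48-fold (1.31 ± 0.09, adjusted p = 7.8e-10). Slc7a8, a neutral amino acid exchanger, averaged 8.16 ± 1.23 CPM with Activin and 30.5 ± 1.47 CPM with SB and fell 3.71-fold (-1.89 ± 0.22, adjusted p = 4.4e-06). Of 17 other genes of amino acid metabolism 9 rose and 1 fell (median 0.30). Glud1, which makes and breaks down glutamate, rose by 0.57 (adjusted p = 6.3e-07). NRF2 targets rose in 4 and fell in 2 of 11 (median 0.04), and genes of mTORC1 and its amino acid sensors rose in 3 and fell in 6 of 23 (median -0.05), Rragd, a small GTPase of that sensing complex, falling by 1.03 (adjusted p = 1.7e-06). In both Vprbp siRNA comparisons 0 genes of these 9 lists were called.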

How the data were processed

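The authors deposited raw counts per gene for all 15 libraries, which the submitters' processing notes tie to HTSeq 0.6.1p1 and mm10. No aligner, gene annotation or strand option is named in what was used here. The 5 tally rows of HTSeq were left out of library sizes. Genes took 55.6 to 60.4% of the tallied fragments. Fragments in no gene were 10.3 to 16.0%, ambiguous ones 0.678 to 0.722% and those not aligned 27.7 to 29.5%. The counts were fitted with edgeR 4.0.16 in R 4.3.3 (TMM scaling, factors 0.985 to 1.02; filterByExpr with a minimum count of 10, leaving 14600 genes; robust quasi-likelihood fit over all 15 libraries; Benjamini-Hochberg adjustment over all genes tested; threshold 0.05). Fold changes are the first group named over the second, ± SE, and CPM values use TMM-scaled library sizes. The biological coefficient of variation was 8.76%. The 47 genes, their roles, the pathway and marker lists and the tests were chosen with earlier results of these data known. Genes were named by a rule: per comparison up to 5 called members with the largest rise and up to 5 with the largest fall; in each role up to 3 with the smallest p over the comparisons; Atf4, Ddit3, Asns and Trib3 always; and in each pathway list up to 2 with the smallest p per comparison. Other genes were named after their values were seen. Promoter sequences are RefSeq's for GRCm38.p6, the assembly of mm10, and 37 of 47 genes matched. Alternatives were other scalings and filters, DESeq2 1.42.0, a replicate block, fits of only the libraries compared, each library left out in turn, and, chosen after seeing the data, a fit without replicate 3 of both untreated groups.

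Replicate numbers come from the sample titles. Libraries with the same number deviated together over genes most clearly between Vprbp siRNA and control siRNA without addition (r = 0.15, 0.22 and 0.43). There the largest r was that of replicate 3, which stood apart in both groups. Deviations from a mean of 3 libraries sum to 0, so a shared shift of replicate 3 also raises r in replicates 1 and 2. Between Vprbp siRNA and SB r was 0.081, 0.11 and 0.12. The labels state no pairing, and a low r cannot show that libraries were unpaired. The block changed no member's call between Vprbp siRNA and control siRNA without addition. Tested on simulated data for Activin against no addition with control siRNA (14430 genes), recovery was 24% of the genes given a 1.3-fold change, 74% of those given 1.5-fold, 76% for 2-fold and 98% for 4-fold. Of 145 calls 9 were false. The changed genes were drawn from all genes tested and varied independently, without a shared shift of replicate 3. The members had a larger median SD within groups (0.246 against 0.143, log2), so these rates need not hold for them. The limit set by 3 counts covers counting error only.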

Additional observations from a re-analysis of the deposited data

How the results depend on the processing

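All counts here are members called of 47 (46 in fits of only the libraries compared). Calls over all genes also changed between the settings, and their share is given here for only some of them. A change in the members' count alone therefore does not set these genes apart. A count given without a share shows only how far the calls depend on the setting. For Activin against SB, with 15 called in the fit of all libraries, 27 were called with the replicate block (40.3% of all genes were), 42 with only the libraries compared, 40 without the 3 libraries that an earlier account of these data placed apart (control siRNA replicate 3, Vprbp siRNA replicate 3, and Vprbp siRNA and Activin replicate 1), 40 without replicate 3 of both untreated groups, and 7 (without Activin replicate 2) to 14 with each library left out, with 9 without SB replicate 1. Scaling by library totals gave 18, no filter on low counts 13 and DESeq2 20. For SB against control siRNA alone, with 1 called, library totals, only the libraries compared and DESeq2 each gave 2 and the block 3. The fits without the 3 libraries and without both replicate 3 libraries gave 26 each (in the latter 12.8% of all genes rose and 12.3% fell). Leaving out each library gave 1 to 12, the most without control siRNA replicate 3 (23.1% of all genes were called). For Activin against no addition with control siRNA, with 2 called, no filter gave 1, the block 4 and the fit without the 3 libraries 5. That without both replicate 3 libraries gave 3 (3.02% of all genes were called), and leaving out each library 0 to 3. With Vprbp siRNA, with 2 called, the block gave 6, only the libraries compared 1, DESeq2 4, and leaving out each library 0 (without Vprbp siRNA replicate 3) to 9 (without Vprbp siRNA replicate 2). For Vprbp siRNA against control siRNA, with 0 called in both conditions, the fit without the 3 libraries gave 1 without addition and 2 with Activin (there 1.39% of all genes were called). With Activin the fits of only the libraries compared (0.486% of all genes) and without both replicate 3 libraries (0.840%) gave 3 each. The cause was not tested: leaving out libraries of other groups changed the estimated spread and also the genes that passed the filter.

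Over all genes, Vprbp siRNA against control siRNA without addition called 6 genes in the fit of all libraries, 18 with the block, 31 with DESeq2, 10 with no filter, 1 with only the libraries compared, 76 without the 3 libraries and 24 without both replicate 3 libraries. With Activin it called 6, and 51, 76, 15, 68, 205 and 124 under the same settings. Activin against no addition called 703 genes with control siRNA, 1058 with the block and 446 without both replicate 3 libraries, and 894 with Vprbp siRNA, 372 with only the libraries compared. The replicate block ended the call of Atf3 for Activin against SB (adjusted p = 0.060, edgeR) and ended no other call of a member there.

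Of the log2 fold changes of named genes that were called, 162 values under an alternative kept their direction and call and 33 lost the call; of those not called 372 stayed so, 32 gained a call and 25 changed sign. All sign changes were of values that were not called with all libraries. For SB against control siRNA alone, leaving out each library gave -0.15 to 0.53 for Atf4, -0.44 to 1.31 for Ddit3 and -0.24 to 0.85 for Trib3, in each case highest without control siRNA replicate 3, and Ddit3 was 0.31 with the block and 1.31 both without the 3 libraries and without both replicate 3 libraries. For Vprbp siRNA against control siRNA without addition, leaving out each library gave -0.65 to 0.16 for Atf4, -1.75 to 0.48 for Ddit3 and -1.37 to 0.10 for Trib3, lowest without Vprbp siRNA replicate 3 and highest without control siRNA replicate 3. With Activin, Atf4 was -0.095 to 0.041 with each library left out and 0.039 without the 3 libraries. For Activin under Vprbp siRNA, Atf4 was -0.49 to 0.0081 with each library left out, 0.082 without the 3 libraries and 0.0055 without both replicate 3 libraries. For the difference of the responses, leaving out each library gave -0.20 to 0.61 for Atf4, -0.81 to 1.42 for Ddit3, -0.34 to 1.13 for Trib3 and -0.19 to 0.15 for Asns, and Asns was 0.0067 without the 3 libraries. Depth limits the precision for Slc7a11, with 3 to 19 counts a library.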
